A study of Mus musculus with 12 samples.

Results

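The galectin family was examined in epididymal white adipose tissue (eWAT) of diet-fed mice. Its members were Lgals1, Lgals3, Lgals8, Lgals9, Lgals12 and the galectin-3 binding protein Lgals3bp, matched by gene symbol, with no value in the rule. They are 6 of 22947 genes to which the transcript rows were summed, and all 6 were among the 12775 genes tested. mRNA-Seq was made from whole eWAT of 12 male C57BL/6J mice, 3 in each of 4 groups, which were 5 weeks old at the start, fed for 16 weeks and housed singly. The ND group received a normal diet and the HFD group a high-fat diet. The CLE group received the high-fat diet to which an ethanol extract of chrysanthemum leaf was added at 1.5% by weight. The LU group received it with 0.003% by weight of luteolin, a flavonoid of the plant. The sequenced mice were described by the study as representative of larger groups, so the spread below covers these 12 mice. Values are FPKM, that is, fragments scaled to transcript length and to the mapped fragments of the library. Each mouse is named by its group and number.

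Galectins are small lectins that bind beta-galactosides on glycoproteins and glycolipids, and they leave the cell by a route without a signal peptide. Galectin-1, the product of Lgals1, works as a dimer, galectin-3 joins a single lectin domain to a tail through which it oligomerizes, and galectins 8, 9 and 12 carry a pair of lectin domains in tandem. In fat, galectin-3 is best known as a product of macrophages, and galectin-12 is made by adipocytes, where it sits on lipid droplets and restrains lipolysis. Lgals3bp encodes a secreted glycoprotein that galectin-3 binds and that has no lectin domain of the galectin kind.

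The coding sequences show what the members share. They are printed to set the macrophage galectin Lgals3 beside the adipocyte galectin Lgals12. Each line runs 5′ to 3′ on the coding strand, from the GENCODE M21 transcript of that gene with the highest mean FPKM. Capitals mark codons of the galectin sugar-binding signature. The first set is His, any residue, Asn, Pro and Arg (the any-residue codon stays in lower case), and the second is Trp, Glu and Arg spaced by 2 residues and then 1. The search read codons in frame for both sets.
Lgals1, chr15:78929676-78929765, plus strand, exon 3: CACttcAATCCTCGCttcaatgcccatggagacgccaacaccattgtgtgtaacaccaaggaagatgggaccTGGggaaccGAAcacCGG
Lgals3, chr14:47384642-47384728, plus strand, exon 5: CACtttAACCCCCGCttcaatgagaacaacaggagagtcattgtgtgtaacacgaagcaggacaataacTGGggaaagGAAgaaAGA
Lgals8, first copy, chr13:12454873-12454887, minus strand, exon 4: CACtttAACCCTCGG
Lgals8, second copy, chr13:12447189-12447266, minus strand, exon 9: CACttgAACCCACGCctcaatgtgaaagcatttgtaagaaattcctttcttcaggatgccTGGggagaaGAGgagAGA
Lgals9, first copy, chr11:78973060-78973140, minus strand, exon 3: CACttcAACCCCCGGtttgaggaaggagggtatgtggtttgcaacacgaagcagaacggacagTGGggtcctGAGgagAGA
Lgals9, second copy, chr11:78965737-78965814, minus strand, exon 9: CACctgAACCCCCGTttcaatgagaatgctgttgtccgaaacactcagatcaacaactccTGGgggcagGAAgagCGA
Lgals12, chr19:7604041-7604127, minus strand, exon 4: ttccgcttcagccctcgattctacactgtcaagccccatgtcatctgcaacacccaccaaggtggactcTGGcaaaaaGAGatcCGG

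All positions are GRCm38 and all windows lie within a single coding exon. Lgals1 and Lgals3 each held both codon sets 1 time, and Lgals9 held both 2 times. Lgals8 held the first set 2 times and the second set 1 time. The Lgals12 coding sequence, 945 bases or 314 codons, held only the second set, 1 time, so its window is the 87 bases that end there. Lgals3bp, 1734 coding bases, held neither. A missing set says only that these codons do not occur in that order.

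Feeding the high-fat diet moved 3 of the 6 members. Lgals3 and Lgals3bp rose and Lgals12 fell, each past an adjusted p under 0.05 and a fold over 1.5 in limma on log2(FPKM + 1). Of all genes tested, 25.6% were called in that comparison. With CLE, Lgals3 and Lgals3bp were lower and Lgals12 higher than in HFD mice, 3 of 6 members against 16.5% of all genes. With LU, only Lgals3 was called against HFD, 1 of 6 against 12.4%. Between CLE and LU no member was called by limma and none had an unadjusted p under 0.05, and 0.00783% of all genes were called. All exact permutation tests given here were two-sided, and with 3 mice against 3 none can give a p below 0.1. Both supplemented groups were compared with the same 3 HFD mice.

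**Figure D1:**
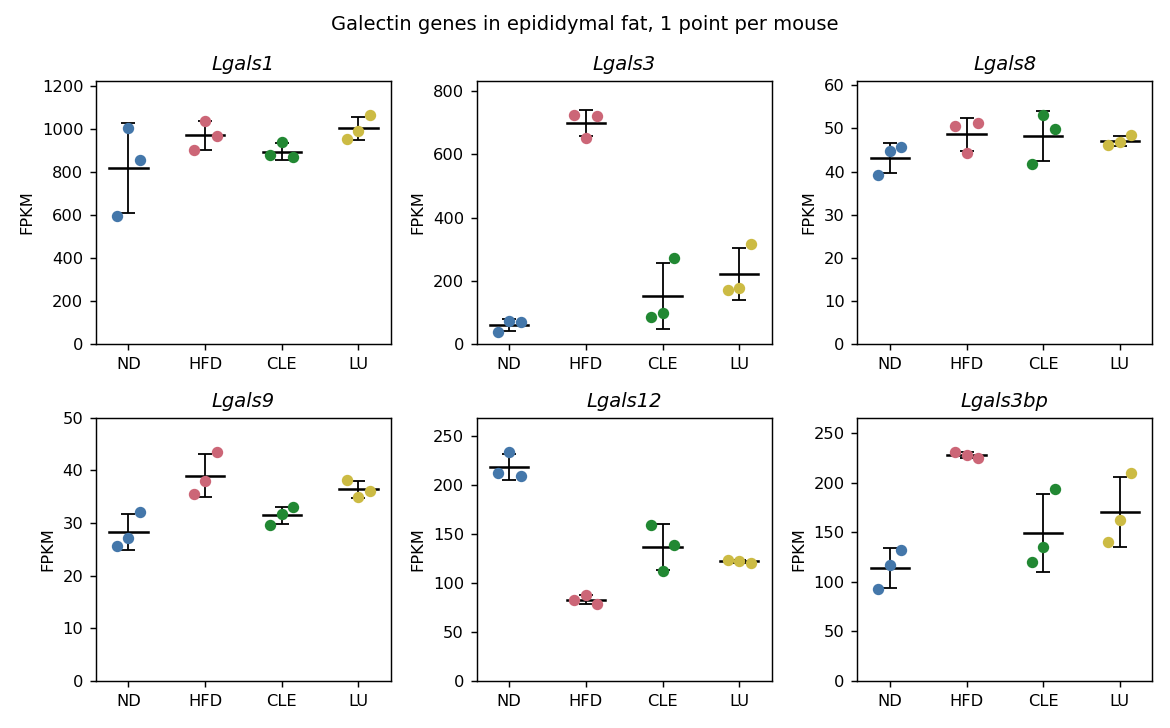
FPKM of each galectin gene by diet group, with 1 point per mouse and bars for the mean ± SD (n = 3). The HFD mice lie above all others for Lgals3 and Lgals3bp and below all others for Lgals12, while HFD and ND mice overlap for Lgals1 and Lgals8.

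Lgals3 (ENSMUSG00000050335, chr14:47367751-47386160, plus strand) encodes galectin-3. It measured 39.6, 72.5 and 69.4 FPKM in ND mice 2, 3 and 4. In HFD mice 12, 15 and 18 it measured 723, 651 and 722 FPKM. The lowest HFD mouse thus lay far above the highest ND mouse, and the fitted rise was 3.56 ± 0.39 (SE) on the log2 scale, or 11.8-fold (adjusted p = 2.36e-05, exact permutation p = 0.1).

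CLE mice 2, 4 and 11 had 86.6, 99.5 and 273 FPKM of Lgals3, and LU mice 2, 3 and 8 had 172, 176 and 317. In each supplemented group a single mouse, CLE 11 or LU 8, stood above the other pair, and no mouse of either group reached the HFD range. Against HFD, Lgals3 was 5.21-fold lower with CLE (log2 change -2.38 ± 0.39, adjusted p = 0.000841) and 3.27-fold lower with LU (-1.71 ± 0.39, adjusted p = 0.0083). Against ND, the LU mice stayed higher by 1.85 ± 0.39 (adjusted p = 0.0112), a call that was lost without LU 8 (adjusted p = 0.0506) and without the 4 libraries whose titles carry the letter R (adjusted p = 0.0574). The CLE mice were also all above the ND mice, but the difference of 1.17 ± 0.39 did not pass (adjusted p = 0.0982). The order of the group means was therefore ND, CLE, LU and HFD. The neighbours ND and CLE, and CLE and LU, did not differ by the test.

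Lgals12 (ENSMUSG00000024972, chr19:7596660-7607193, minus strand), the adipocyte galectin, ran the other way. It measured 212, 234 and 210 FPKM in ND mice 2, 3 and 4, and 82.6, 88.2 and 78.5 FPKM in HFD mice 12, 15 and 18. The groups were far apart, and the fitted fall was 2.61-fold (log2 change -1.38 ± 0.11, adjusted p = 3.10e-06, exact permutation p = 0.1).

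The CLE mice had 159, 112 and 138 FPKM of Lgals12, in the order 2, 4 and 11, and the LU mice had 123, 122 and 121 FPKM in the order 2, 3 and 8. Every supplemented mouse lay between the HFD and the ND range. Lgals12 was 1.62-fold higher with CLE than in HFD (log2 change 0.70 ± 0.11, adjusted p = 0.000841), and leaving out CLE 2 brought this to 0.58, under the fold limit, with an adjusted p of 0.003. With LU it was 1.46-fold higher (0.55 ± 0.11, adjusted p = 0.0051), past the adjusted p but under the fold limit of 1.5.

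With both supplements Lgals12 was called below the ND level. It was 1.61-fold lower in CLE than in ND mice (log2 change -0.69 ± 0.11, adjusted p = 0.014) and 1.78-fold lower in LU mice (-0.83 ± 0.11, adjusted p = 0.00165). Without CLE 4 the first of these was -0.55, under the fold limit, and with only the ND and CLE libraries in the fit its adjusted p was 0.0984. Against ND, 1 of 6 members was called with CLE, where 2.91% of all genes were, and 2 of 6 with LU, where 6.59% were. In order of mean, HFD lay below LU, CLE and ND, and the neighbours LU and CLE differed by only 0.15 with a 95% interval from -0.10 to 0.40.

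**Figure D2:**
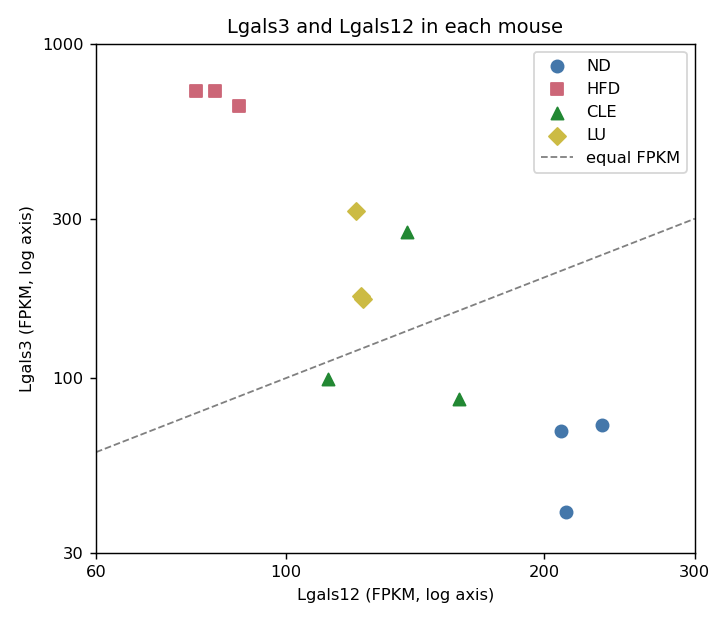
Lgals3 against Lgals12 in each of the 12 mice, both in FPKM on log axes, with a dashed line at equal FPKM. ND mice sit at the lower right, HFD mice at the upper left, and the supplemented mice between them, 4 of which lie above the line.

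Set against each other within a mouse, the macrophage and the adipocyte galectin changed places. The ratio of Lgals3 to Lgals12 FPKM was 0.187, 0.31 and 0.331 in ND mice 2, 3 and 4, and 8.75, 7.38 and 9.2 in HFD mice 12, 15 and 18. It was 0.544, 0.889 and 1.97 in CLE mice 2, 4 and 11, and 1.4, 1.44 and 2.63 in LU mice 2, 3 and 8. All 3 LU mice and CLE 11 thus held more Lgals3 than Lgals12, and CLE 2 and CLE 4 held less. The group means were 0.276 ± 0.078 (SD, n = 3) in ND, 8.44 ± 0.95 in HFD, 1.13 ± 0.74 in CLE and 1.82 ± 0.70 in LU. Without CLE 11 the CLE mean was 0.716, on the other side of 1. These ratios are given without a test.

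Lgals3bp (ENSMUSG00000033880, chr11:118392751-118402092, minus strand) followed Lgals3 with a smaller range. It measured 92.6, 117 and 132 FPKM in ND mice 2, 3 and 4, and 231, 228 and 225 FPKM in HFD mice 12, 15 and 18. The fitted rise with the high-fat diet was 2.01-fold (log2 change 1.01 ± 0.19, adjusted p = 0.00112). CLE mice 2, 4 and 11 had 120, 135 and 194 FPKM and LU mice 2, 3 and 8 had 140, 162 and 210. As for Lgals3, CLE 11 and LU 8 were the highest of their groups, and all supplemented mice lay below the HFD range. The CLE change against HFD was -0.64 ± 0.19 (adjusted p = 0.0244), and leaving out any of the 3 HFD mice, CLE 2 or CLE 4 ended this call, with an adjusted p of up to 0.0951. It was also lost without the 4 letter R libraries (adjusted p = 0.0779) and with quantile scaling (-0.57, under the fold limit). The LU change of -0.43 ± 0.19 did not pass (adjusted p = 0.116).

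Lgals9 (ENSMUSG00000001123, chr11:78962974-78984946, minus strand) encodes galectin-9, a ligand of the T cell surface protein Tim-3. It measured 25.6, 27.2 and 32.2 FPKM in ND mice 2, 3 and 4, against 35.5, 38 and 43.5 FPKM in HFD mice 12, 15 and 18. The groups did not overlap, but the change of 0.45 ± 0.10 (adjusted p = 0.00381) was under the fold limit. CLE mice had 29.7 to 33 FPKM, all below the HFD mice (log2 change -0.30 ± 0.10, adjusted p = 0.0445), and LU mice had 35 to 38.2 FPKM, within the HFD range at its lower end and just below it (-0.09 ± 0.10, adjusted p = 0.546). LU mice also lay above all ND mice (0.36 ± 0.10, adjusted p = 0.0432). With single libraries left out, the limma adjusted p reached 0.172 for CLE against HFD and 0.136 for LU against ND.

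Lgals1 (ENSMUSG00000068220, chr15:78926725-78930465, plus strand) had the highest FPKM of the members in all 12 libraries. It measured 595, 1008 and 859 FPKM in ND mice 2, 3 and 4, and 904, 1040 and 970 in HFD mice 12, 15 and 18. ND 2 was the lowest library, and the other ND mice overlapped the HFD mice. The diet change was 0.27 ± 0.15 with a 95% interval from -0.06 to 0.61 (adjusted p = 0.159). Across CLE and LU mice Lgals1 ranged from 872 to 1065 FPKM, and no comparison passed. Without the 4 letter R libraries, which leaves ND 2 as the only ND mouse, the diet change was 0.70 (adjusted p = 0.0047) and that of LU against ND was 0.79 (adjusted p = 0.0276), both past the limits.

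Lgals8 (ENSMUSG00000057554, chr13:12439415-12464944, minus strand) encodes galectin-8, which marks damaged vesicles for autophagy. It stayed between 39.3 and 53 FPKM in all 12 mice. Its diet change was 0.17 ± 0.10 with an interval from -0.06 to 0.39 (adjusted p = 0.202), and its changes with CLE and LU against HFD were -0.02 and -0.04, each with an SE of 0.10. The sign of the CLE value turned under some settings.

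**Figure D3:**
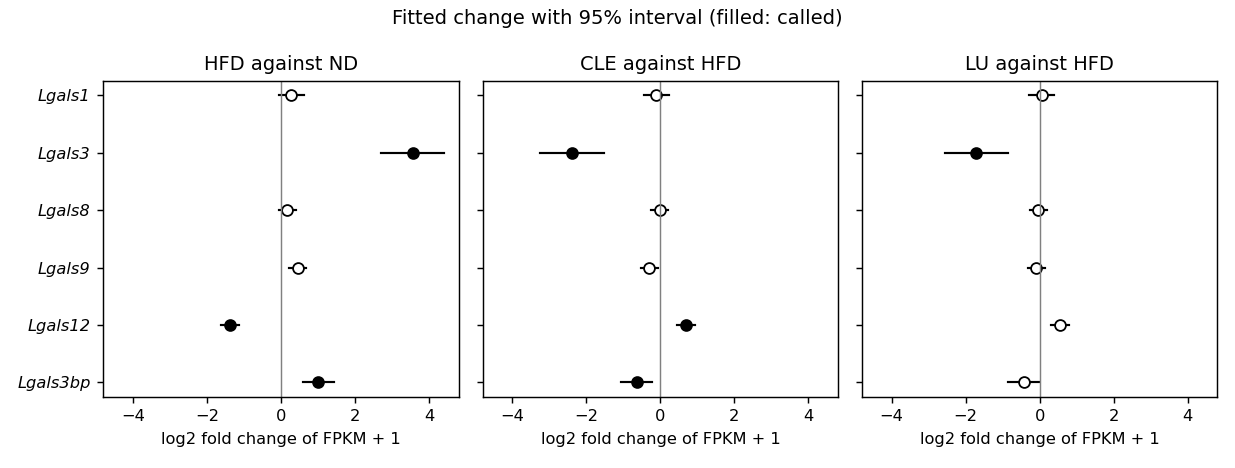
Fitted log2 change of FPKM + 1 for each member in HFD against ND, CLE against HFD and LU against HFD, with 95% intervals and filled points for called changes. Lgals3 and Lgals12 lie on opposite sides of 0 in all 3 comparisons, and the intervals of Lgals1 and Lgals8 cross 0 in each.

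As a share of the 5 lectin genes' summed FPKM, Lgals3 made up 4.34% to 5.71% in ND mice and 35% to 40.3% in HFD mice. Lgals12 made up 16.9% to 23.3% in ND and 4.21% to 4.74% in HFD. In CLE mice Lgals3 held 7.24% to 20% and Lgals12 9.05% to 13.3%. In LU mice they held 12.8% to 20% and 7.6% to 9.2%. Lgals1 held the most in every library.

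Set directly against each other, CLE and LU differed in Lgals3 by -0.67 ± 0.39 (CLE minus LU, 95% interval -1.53 to 0.18, adjusted p = 0.891). The interval thus includes both no difference and a level in CLE well below that in LU. For Lgals3bp the difference was -0.20 (interval -0.62 to 0.22), for Lgals9 -0.21 (interval -0.43 to 0.02), for Lgals1 -0.16 (interval -0.50 to 0.18) and for Lgals8 0.03 (interval -0.20 to 0.25).

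Markers of the cell types in fat moved with these results. The summed FPKM of 8 macrophage markers (Adgre1, Cd68 and others) was 342 to 508 in ND, 2227 to 2556 in HFD, 579 to 840 in CLE and 908 to 1028 in LU mice. Its largest part was Lyz2, with means of 289 FPKM in ND and 1667 in HFD. Of the 8, 7 were called higher in HFD than in ND and 7 lower with each supplement. All 5 markers of lipid-associated macrophages, Trem2 and Gpnmb among them, were called in the same directions, and their sum was highest in CLE 11 and LU 8 within those groups, the same mice that were highest for Lgals3. The 7 adipocyte markers summed to 26115 to 27628 FPKM in ND, 15700 to 17677 in HFD, 23268 to 25031 in CLE and 21778 to 26832 in LU. Fabp4 was the largest part, with means of 19732 FPKM in ND and 10999 in HFD. Of the 7 markers, 5 were called lower in HFD than in ND, and Lep, the leptin gene, was called higher. Against HFD, 5 were called higher and 1 lower with CLE, but only 2 higher and 1 lower with LU. No marker of either list was at 0. The shares of all genes called were 25.6% in HFD against ND, 16.5% in CLE against HFD and 12.4% in LU against HFD. In whole tissue, fewer cells of a type and less RNA per cell cannot be told apart, and the part of cell composition in the galectin results was not tested.

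Markers of other tissues and of other cells in fat were summed in the same way. The 4 epididymis markers summed to at most 5.46 FPKM, with Lcn5 at 0 in all libraries. The measured muscle markers Ckm and Myh4 were above 1 FPKM in sum only in HFD 12 (2.02) and CLE 11 (8.29). The liver markers summed to between 1.59 and 29.2 FPKM, and the 4 T cell markers to between 3.21 and 9.56. Of the liver markers, 1 was called lower in HFD than in ND, 1 higher with CLE than in HFD and 1 lower in LU than in ND. The liver marker Alb averaged 14.7 FPKM in ND, 2.6 in HFD, 9.26 in CLE and 3.87 in LU. The 4 mesothelial markers summed to 6.55 to 45.5 FPKM in ND, 2.03 to 6.14 in HFD, 5.43 to 9.34 in CLE and 5.99 to 13.4 in LU, and 3 of them were called lower in HFD than in ND. The 4 endothelial markers summed to 165 to 265 FPKM in ND, 134 to 220 in HFD, 197 to 283 in CLE and 229 to 282 in LU, with 1 called lower in HFD than in ND, 1 called higher with CLE and 2 with LU against HFD. The 4 adipose progenitor markers summed to 75.2 to 99.7 FPKM in ND, 112 to 120 in HFD, 66.6 to 97 in CLE and 73.9 to 99.5 in LU, and limma called none of them, while 2 with the high-fat diet, 1 with CLE and 2 with LU had an unadjusted p under 0.05. Over all genes, 25.6% were called in HFD against ND, 16.5% in CLE against HFD, 12.4% in LU against HFD and 6.59% in LU against ND. In these short lists, a single call in HFD against ND is near that share. An unadjusted p under 0.05 was found for 7225, 5610 and 5009 of 12775 genes with the high-fat diet, CLE and LU. The part of these cells in the galectin results was not tested.

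Relative to a macrophage gene, Lgals3 moved much less than in FPKM. The ratio of Lgals3 to Cd68, a lysosomal protein of macrophages, was 2.5, 4.47 and 5.53 in ND mice 2, 3 and 4, and 2.54, 2.75 and 2.62 in HFD mice 12, 15 and 18. It was 2.51 to 3.84 in CLE and 3.2 to 3.57 in LU mice, so all groups fell within the ND range. The choice of gene mattered, since the ratio to Lyz2, the macrophage lysozyme, was 0.175 to 0.271 in ND and 0.381 to 0.479 in HFD. The ratio to the macrophage marker Adgre1 ran the other way, with 5.08 to 9.46 in ND and 4.41 to 5.06 in HFD mice.

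Relative to Plin1, which coats lipid droplets, Lgals12 still separated ND from the rest. The ratio was 0.25, 0.275 and 0.278 in ND mice 2, 3 and 4, and 0.191, 0.173 and 0.18 in HFD mice 12, 15 and 18. In CLE mice it was 0.189, 0.19 and 0.194, and in LU mice 0.192, 0.176 and 0.199. All 9 mice on a high-fat diet thus lay between 0.173 and 0.199, below the ND mice, with or without a supplement. Plin1 itself did not differ between CLE and ND by the test (log2 change -0.21 ± 0.13, adjusted p = 0.36), while Lgals12 was called lower. Against Cidec, a lipid droplet fusion protein, the ratio showed the same split, 0.0644 to 0.0795 in ND and 0.034 to 0.0484 in the other mice. These ratios were chosen after the values were seen and carry no test.

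**Figure D4:**
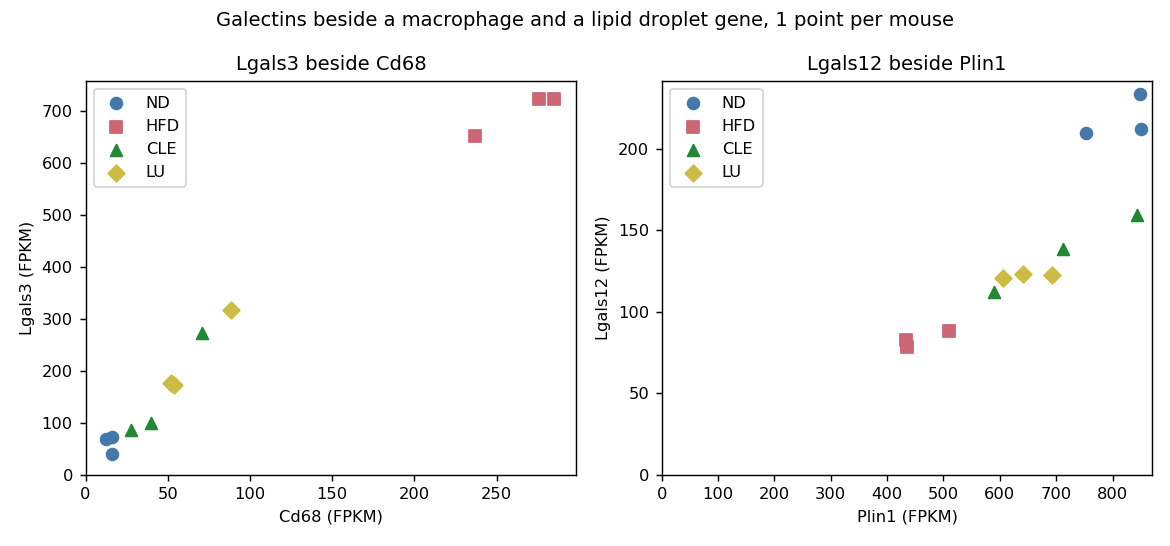
Left, Lgals3 against the macrophage gene Cd68, and right, Lgals12 against the lipid droplet gene Plin1, in FPKM with 1 point per mouse. Lgals3 and Cd68 spread together across the groups, and the ND mice hold more Lgals12 per Plin1 than the 9 mice on a high-fat diet.

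The transcripts of Lgals12 also differed in share between the diets. Lgals12-203 and Lgals12-202 together carried most of its FPKM. They have an identical coding sequence and differ at the 5′ end, where Lgals12-203 splices exon 1 (chr19:7607127-7607193) to exon 2 (chr19:7606662-7606823), and Lgals12-202 keeps the bases between them in a single exon (chr19:7606662-7607178). Lgals12-203 held 65.1%, 68.6% and 67.1% of the gene's FPKM in ND mice 2, 3 and 4, and 56.2%, 55.8% and 55.4% in HFD mice 12, 15 and 18. The groups did not overlap (exact permutation p = 0.1). It held 66.3%, 62.3% and 58.1% in CLE mice 2, 4 and 11, and 63%, 63.3% and 54.8% in LU mice 2, 3 and 8, so that LU 8 lay below the HFD mice. The share of Lgals12-202 was 21.9% to 26% in ND, 33.7% to 34.5% in HFD, 24.9% to 29.5% in CLE and 26.7% to 33.5% in LU.

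**Figure D5:**
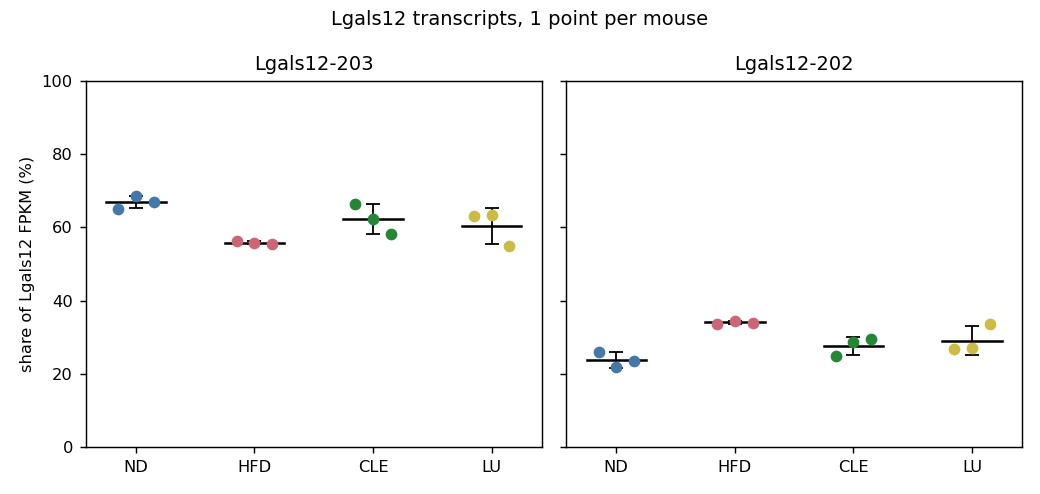
Share of the summed Lgals12 FPKM held by transcripts Lgals12-203 (left) and Lgals12-202 (right), in percent, with 1 point per mouse and bars for the mean ± SD (n = 3). HFD mice hold less Lgals12-203 and more Lgals12-202 than all ND mice.

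In absolute level both Lgals12 transcripts were lower in HFD mice. Lgals12-203 averaged 146 ± 12 FPKM (SD, n = 3) in ND and 46.4 ± 2.9 in HFD, and Lgals12-202 averaged 51.7 ± 3.2 and 28.3 ± 1.9. The Lgals3 transcripts varied little in share, with Lgals3-204 at 74.2% to 78.5% and Lgals3-201 at 21.4% to 24.6% in all 12 mice. Both encode the same 264 codons. A single transcript held nearly all of Lgals3bp (96.9% to 98.3%) and most of Lgals9 (84.9% to 97.9%), Lgals1 had 1 row, and Lgals8 was spread over 18 rows, 7 of which reached 5% in some group.

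Of the other galectins, Lgals4, an epithelial galectin with tandem lectin domains, changed in the same directions as Lgals12 and was called with the high-fat diet, with CLE and with LU. It measured 50, 36.3 and 45.5 FPKM in ND mice 2, 3 and 4, and 14.8, 15.5 and 14.4 FPKM in HFD mice 12, 15 and 18. CLE mice had 22.8 to 33.4 and LU mice 27.7 to 30.3 FPKM, between the other groups. Its log2 change was -1.49 ± 0.14 with the high-fat diet (adjusted p = 9.41e-06), 0.91 with CLE (adjusted p = 0.000646) and 0.93 with LU (adjusted p = 0.000971). Against ND, Lgals4 changed by -0.57 in CLE mice (adjusted p = 0.0438) and by -0.56 in LU mice (adjusted p = 0.0269). Both were under the fold limit. The highest values of the rest were 24.9 FPKM for Lgals7 in CLE 11, 13.3 FPKM for Lgalsl and 1.14 FPKM for Lgals2, which was not tested. Lgals7, a galectin of stratified epithelium, was high in CLE 11 and in HFD 12 (19 FPKM), the libraries with muscle RNA, and at most 4.38 FPKM elsewhere. Lgals6 had no row.

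Most of the listed glycoproteins that bind galectins were called with the high-fat diet. Of 15 such partners, 8 were called higher and 1 lower in HFD than in ND, with a median log2 change of 0.64 beside -0.02 over all genes. The largest rises were those of Cd44, the hyaluronan receptor (3.33 ± 0.30, adjusted p = 6.05e-06), and Ptprc, which encodes the leukocyte protein CD45 (2.17 ± 0.16, adjusted p = 1.40e-06). The insulin receptor gene Insr fell by 1.03 on the log2 scale (adjusted p = 2.56e-05). With CLE 7 partners were lower and 2 higher than in HFD (median -0.56), and with LU 4 were lower and 1 higher (median -0.40). Of all genes, 25.6% were called with the high-fat diet, 16.5% with CLE and 12.4% with LU. Cd44 was changed by -2.39 and -1.75 and Ptprc by -1.39 and -1.05. Insr was called higher with CLE (0.73), and its LU value was 0.58 (adjusted p = 0.00367), just under the fold limit.

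Among 11 glycan enzymes that build or cap galectin ligands, 4 were called higher and 1 lower with the high-fat diet (median 0.53). The largest rises were B4galt5, a galactosyltransferase (2.21 ± 0.23, adjusted p = 1.79e-05), and Gcnt1, which starts core-2 branches on O-glycans (2.09 ± 0.16, adjusted p = 1.62e-06). The sialyltransferase gene St3gal4 fell by 0.63 on the log2 scale (adjusted p = 0.00067). With CLE 4 of the 11 and with LU 3 were called lower. The shares of all genes called were 25.6% with the high-fat diet, 16.5% with CLE and 12.4% with LU. B4galt5 changed by -1.74 and -1.32, and Gcnt1 by -1.70 and -1.46. Ptprc, Cd44 and the other leukocyte genes of these lists move with the macrophage markers given above, and the part of the macrophages in them was not tested.

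Of 4 tested genes of the damaged lysosome response, in which galectins 3, 8 and 9 act as sensors, limma called none with the high-fat diet, and 3 had an unadjusted p under 0.05. Among all 12775 genes tested, 25.6% were called in that comparison, 16.5% with CLE and 12.4% with LU. With the high-fat diet, 7225 of them had an unadjusted p under 0.05. Optn (-0.56, adjusted p = 0.00169) and Tax1bp1 (0.29, adjusted p = 0.00459) passed the adjusted p there but not the fold limit. With CLE, Optn was again past the adjusted p only (0.53, adjusted p = 0.0041). Trim16, a ubiquitin ligase that works with galectin-3, was called higher with CLE (0.72 ± 0.16, adjusted p = 0.00561), and its LU value of 0.56 (adjusted p = 0.0252) was under the fold limit.

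Lgals12 lay among lipolysis genes that fell. Of 12 lipolysis and lipid droplet genes, 8 were called lower in HFD than in ND (median -0.71), led by the beta-3 adrenergic receptor gene Adrb3 (-2.73 ± 0.29, adjusted p = 1.79e-05) and the phosphodiesterase gene Pde3b (-1.30 ± 0.18, adjusted p = 0.000114). With CLE 8 were called higher than in HFD and with LU 3. Over all genes the shares called were 25.6% with the high-fat diet, 16.5% with CLE and 12.4% with LU. Adrb3 changed by 1.79 and 1.67 and Pde3b by 0.90 and 0.67. In CLE against ND limma called none of the 12, of which 3 had an unadjusted p under 0.05, all lower. Adrb3 was among them, at -0.94 ± 0.29 (adjusted p = 0.0786). In LU against ND Adrb3 and Pde3b were called lower.

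Lgals9 and Lgals3bp are known to respond to interferon. In the RefSeq promoter table (GRCm38.p6, 250 bases before to 50 after the gene start), which held 4 of the 6 members, only Lgals9 had the core of the interferon-stimulated response element. The letters searched on both strands were GAAA, any 2 bases and GAAA, found in 3.44% of 32851 windows. The Lgals9 window is shown with both matches, which lie on the opposite strand, in capitals.
Lgals9 promoter, chr11:78984875-78985174, minus strand: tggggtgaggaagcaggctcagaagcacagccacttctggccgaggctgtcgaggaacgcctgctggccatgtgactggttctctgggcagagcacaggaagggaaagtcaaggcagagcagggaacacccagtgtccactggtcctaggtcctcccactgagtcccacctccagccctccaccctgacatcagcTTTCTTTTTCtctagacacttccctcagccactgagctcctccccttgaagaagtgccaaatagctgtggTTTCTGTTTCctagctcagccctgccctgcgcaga

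The direct repeat 1 motif, AGGTCA repeated after 1 free base, was in 0.0396% of windows and in none of the 4 members held. Lgals1 and Lgals12 had no promoter window, so no motif was searched in them. The macrophage factor motif PU.1, searched as GAGGAA, was in 28.3% of windows, among them Lgals9 and Lgals3bp. These matches are descriptions only. Of 10 interferon-stimulated genes, 2 were called higher and 1 lower in HFD than in ND, with a median of -0.24. That is near the 25.6% of all genes called in this comparison. Oas1a rose by 1.33 ± 0.21 (adjusted p = 0.000354) and Mx1 by 0.77 ± 0.10 (adjusted p = 6.97e-05), both antiviral effectors, and Isg15, a ubiquitin-like modifier, fell by 0.78 (adjusted p = 0.0217). With CLE and with LU only Oas1a was called, lower by 1.06 and 0.82, beside 16.5% and 12.4% of all genes.

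Over the 12 libraries, which share 4 diet groups, the genes with the pattern most like that of Lgals12 on log2(FPKM + 1) were Sh3glb2 (Pearson r = 0.990), Tspan12 (0.981), Phkg1 (0.974), Psmg2 (0.971) and Mmaa (0.971). Sh3glb2 averaged 100.3 FPKM in ND, 48.1 in HFD, 66.1 in CLE and 61.8 in LU. These genes were picked for their likeness in the same libraries, so a shared group pattern follows from the choice. For Lgals3 the genes picked in this way were Rhoc (0.994), Lat2 (0.993), Sh3bgrl3 (0.993), Cfl1 (0.992) and Tmem176a (0.992). Rhoc and Cfl1 encode regulators of the actin cytoskeleton and Lat2 a signalling adaptor of leukocytes. Lat2 averaged 2.08 FPKM in ND and 43.8 in HFD, with 7.12 in CLE and 11.2 in LU.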

How the data were processed

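Epididymal fat of 12 mice was sequenced as paired-end mRNA-Seq, 3 mice in each of 4 diet groups taken from the sample labels. The deposited table holds FPKM per assembled transcript, made by the authors with TopHat2 2.0.12, Bowtie2 2.2.3 and Cufflinks 2.2.1, and CASAVA 1.8.2 is also named in the submitters' processing notes. The genome build is not given in the sources used here, and 87.6% of known transcripts start and end as in GENCODE M21 (GRCm38). The column headed MD4 was taken as ND mouse 4, by inference, and 3 columns matched no sample and were not used. Read depth is unknown, since the table gives no counts.

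Rows with an Ensembl transcript, plain or with class code = or j, were summed per gene. Genes with at least 1 FPKM in at least 3 libraries were tested in limma 3.58.1 (R 4.3.3) on log2(FPKM + 1), which understates changes of low genes, with all 12 libraries in 1 fit, 6 contrasts and Benjamini-Hochberg adjustment over 12775 genes within each contrast. A call needed an adjusted p under 0.05 and a fold over 1.5. The fit was also run on simulated data, after the fits to the real values, and that outcome is not given here. Members and gene lists were chosen with earlier results of these data known. Genes named from a list are its called genes that changed most in HFD against ND, up to 2 upward and 2 downward, and for Lgals12 and Lgals3 the 5 genes with the highest Pearson r. Trim16, Optn, Tax1bp1, the single markers Lyz2, Fabp4 and Alb, and the ratios to marker genes were chosen after values were seen.

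The other settings tried were a filter at a mean of 5 FPKM or none at all, a pseudocount of 0.1, equal totals, median ratios, quantiles, only the groups compared, an intensity trend, the letter R in some titles as covariate, a replicate block on mouse number, the adjusted p alone, the top transcript per gene, no class code j, and each library left out. Leaving out all 4 libraries with the letter R was added after seeing the data. The letter stands in the titles of ND 3, ND 4, CLE 4 and LU 2, and of no HFD library. Its meaning is not stated, and in comparisons with HFD it cannot be fully told apart from the diet.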

Additional observations from a re-analysis of the deposited data

Results flagged for a closer look

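An assembled transcript on the minus strand at Lgals3 (chr14:47373895-47385548), left out of the gene sums, averaged 28.8 ± 3.6 FPKM (SD, n = 3) in HFD mice and 1.4 ± 0.13 in ND mice, with 5.97 ± 4.5 in CLE and 7.14 ± 2.8 in LU. It was singled out because the signal lies outside the values compared and exceeds that of the ND mice. The library kit is not stated to keep strand, so reads of Lgals3 and of this row cannot be told apart. Whether it is a separate RNA was not tested.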

How the results depend on the processing

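Read depth is unknown, so no counting error can be given, and 3 mice per group, picked as representative, limit every comparison. Of 882 refits of the 36 member changes, 851 kept their direction and their side of the threshold. The causes of the changes below were not tested. The 3 calls of HFD against ND were made in every fit with a library left out.

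Lgals12 in LU against HFD passed the fold limit with the letter R as covariate (0.59) and with the top transcript (0.65). With each library left out it ranged from 0.51 to 0.59 and passed the limit without HFD 15. Thus 2 members instead of 1 were called in these fits and by the adjusted p alone. In CLE against HFD, leaving out single libraries gave 1 to 3 calls and 0.58 to 0.83 for Lgals12. In CLE against ND, 0 members instead of 1 were called with only the groups compared, without CLE 4 (0 to 1 over the left-out libraries) and without the 4 letter R libraries. The last fit leaves ND with 1 mouse, assumed to vary like the other groups. In it Lgals1 was called in HFD against ND (0.70, adjusted p = 0.0047) and in LU against ND (0.79, adjusted p = 0.0276), and Lgals3 was not called in LU against ND (adjusted p = 0.0574) nor Lgals3bp in CLE against HFD (adjusted p = 0.0779). In LU against ND, leaving out single libraries gave 1 to 2 calls, 1 without LU 8, and the other settings 2 to 3. The HFD ratio of Lgals3 to Lgals12 was 11.5 from the top transcripts.

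Small changes that were never called turned sign. Lgals8 in CLE against HFD was 0.038 with quantiles and 0.015 without class code j, and -0.086 to 0.083 with libraries left out. In CLE against LU it was -0.059 without the letter R libraries and -0.045 to 0.12 with each left out. Lgals1 was -0.022 in LU against HFD with the letter R as covariate, -0.0015 to 0.10 with libraries left out, and -0.054 to 0.33 in CLE against ND.

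The mouse numbers are shared between groups only as numbers, with correlations of deviations between -0.0989 and 0.189. With a replicate block on them, 0 members were called in CLE against ND, where Lgals12 was -0.66 with an adjusted p of 0.189, and Lgals8 in CLE against LU was -0.047. That fit holds only the ND, CLE and LU libraries and 12522 genes. Over all genes it gave 2 calls in CLE against ND, where the fit to all libraries gave 372 and the fit to only the groups compared, with no block, gave 0. In LU against ND these counts were 419, 842 and 710. The calls of CLE against ND fell to 227 with no filter, to 207 with the top transcript, to 224 without class code j, and to 119, 230, 127 and 159 without ND 2, CLE 4, CLE 11 and the letter R libraries.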
